A study of Mus musculus with 12 samples.

Results

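A set of 10 genes that macrophages are known to change in response to interleukin-4 (IL-4), or that pass on or answer the alternative state it induces, was followed here across kidney myeloid cells and polarized bone marrow derived macrophages. They were Retnla, Chil3 (Chi3l3 on the array), Chil4 (Chi3l4), Mrc1, Clec10a, Mgl2, Il4ra, Cd200r1, Tgm2 and Cdh1. Every array probe carrying one of these 10 gene names was taken, which gave 12 of 55681 probes. Il4ra and Tgm2 had 2 probes each, and each probe was read on its own. RNA of 12 samples was measured on one-colour Agilent arrays, with 4 groups of 3 arrays. The WT renal group held kidney cells of wild-type mice, and the op/op renal group held kidney cells of op/op mice, which are homozygous for a loss-of-function mutation of Csf1, which encodes the growth factor M-CSF that macrophages depend on. Both received glyoxylate at 80 mg/kg for 6 days, a treatment that makes calcium oxalate crystals form in the kidney, and no untreated kidney was included among the samples used here. Kidney cells were sorted magnetically for the myeloid surface proteins CD11b and CD11c. M1 cells were bone marrow derived macrophages given lipopolysaccharide and GM-CSF, and M2 cells were bone marrow derived macrophages given IL-4 and M-CSF, so the growth factor differed between them along with the polarizing agent. All 12 samples carry the same strain label, B6C3Fe a/a-Csf1op/J, which does not give the genotype of the marrow donors. Ages and sexes are not given in the sources used here.

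IL-4 binds a receptor whose alpha chain is encoded by Il4ra, and Janus kinases on that receptor phosphorylate the transcription factor STAT6, which moves to the nucleus and binds paired TTC and GAA half-sites. In mouse macrophages this turns on secreted proteins such as Retnla (RELM-alpha, also called Fizz1) and the chitinase-like proteins Chil3 and Chil4 (Ym1 and Ym2), and raises lectin receptors of the cell surface such as Mrc1. Several of these products are also made by other cells, among them neutrophils, eosinophils, dendritic cells and epithelium, so a level in a sorted population is not specific to macrophages.

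RefSeq promoter windows (GRCm38.p6, 250 bases before to 50 bases after the gene start) were at hand for 6 of the 10 genes: Retnla, Chil3, Chil4, Mrc1, Mgl2 and Il4ra. They were searched for TTCNNNNGAA, the spacing known for STAT6, and for TTCNNNGAA, the spacing shared by most STAT proteins. Both motifs read the same on either strand, and no window of the 6 held both. TTCNNNNGAA occurred in 1 of the 6 windows (Retnla) and in 6.95% of 32851 promoter windows of the same length. TTCNNNGAA occurred in 2 of the 6 (Chil3 and Chil4) and in 8.3% of all. The 3 stretches are shown because these genes were the secreted products that were higher in M2 than in M1 cells. Each is written 5′ to 3′ on the gene's strand with 40 bases on either side, and capitals mark the motif match.
Retnla, chr16:48842424-48842513, plus strand: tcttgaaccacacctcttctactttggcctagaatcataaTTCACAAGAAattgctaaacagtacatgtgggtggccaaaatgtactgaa
Chil3, chr3:106167688-106167776, minus strand: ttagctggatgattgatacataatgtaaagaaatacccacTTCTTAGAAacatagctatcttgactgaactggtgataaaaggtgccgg
Chil4, chr3:106219631-106219719, minus strand: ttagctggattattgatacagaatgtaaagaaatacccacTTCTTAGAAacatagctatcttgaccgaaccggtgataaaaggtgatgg
The match began 145 bases before the start of Retnla, 172 before that of Chil3 and 200 before that of Chil4. The windows of Chil3 and Chil4, which lie near each other on chromosome 3, were identical at 251 of 272 aligned positions (92.3%). A match is a string of letters and not a measured binding site.

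Levels are log2 processed signals relative to the 75th percentile of the same array, so 0 is that percentile and each unit is a doubling; levels of different probes were not set against each other as amounts of RNA. The scanner software calls a spot well above background or not, and 63.1% to 68.8% of probes were so called on op/op arrays, 76.1% to 79.3% on WT, 72.6% to 75.1% on M1 and 64.4% to 65.1% on M2 arrays. Differences were fitted with limma over all 12 arrays, with Benjamini-Hochberg adjustment over all probes that passed the background call on all 3 arrays of either group compared, and a probe was called at an adjusted p under 0.05. Some folds are given as a lower bound, written "at least", where a group was not above background. The adjusted p beside such a bound is that of the limma difference of the values as measured, not of the bound. The labels name no separate animals or cultures for the replicates. A p-value therefore reflects only how far these arrays spread, which can be technical spread. Macrophage markers were present in all groups: 12 of 12 were well above background on all WT and op/op arrays, and 11 of 12 on all M1 and on all M2 arrays. Proximal tubule markers were also well above background, 10 of 10 on all WT, 9 of 10 on all op/op, 7 of 10 on all M1 and 6 of 10 on all M2 arrays. Their mean level was 2.33 to 3.41 on WT and 0.31 to 1.4 on op/op arrays. It was -3.25 to -3.16 on M1 and -3.15 to -2.93 on M2 arrays. The 6 marrow arrays shared a slide, 5 kidney arrays shared another, and WT replicate 1 was on a slide of its own. WT and M1 arrays lay in the upper slide row and op/op and M2 arrays in the lower, so row and group cannot be told apart in either comparison, nor slide and tissue between kidney and marrow.

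M2 cells differed from M1 cells in the secreted products and in 2 of the 3 lectins. Of the 12 member probes 11 were tested and 7 were called, against 17.8% of all 39283 probes tested. Of the 7, 6 were higher in M2 (8.88% of all probes were called higher), and a probe of Il4ra was lower (8.9%). The median difference of the member probes was 1.55 on the log2 scale, also with Retnla set to its bound, and that of all probes was 0. The groups did not overlap at any of the 11 member probes tested, nor at 51.2% of all probes tested. Between op/op and WT renal cells, 9 member probes were tested and 4 were called (Mrc1, Clec10a and 1 probe of Tgm2 lower, 1 probe of Il4ra higher), a share near the 56% of all 40646 probes that were called (27.5% higher and 28.5% lower). The median was -0.41 for the member probes and 0.08 for all, and 4 of the 9 did not overlap between the groups, against 56.4% of all. In bulk RNA fewer cells that express a gene and less of its RNA per cell cannot be told apart. Kidney arrays varied more than marrow arrays (median residual SD 0.376 against 0.172), and the fit pools both. Fitted on the compared groups alone, 10 of 11 member probes (36.9% of all probes) were called in M2 minus M1 and 4 of 9 (33.2%) in op/op minus WT.

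**Figure D1:**
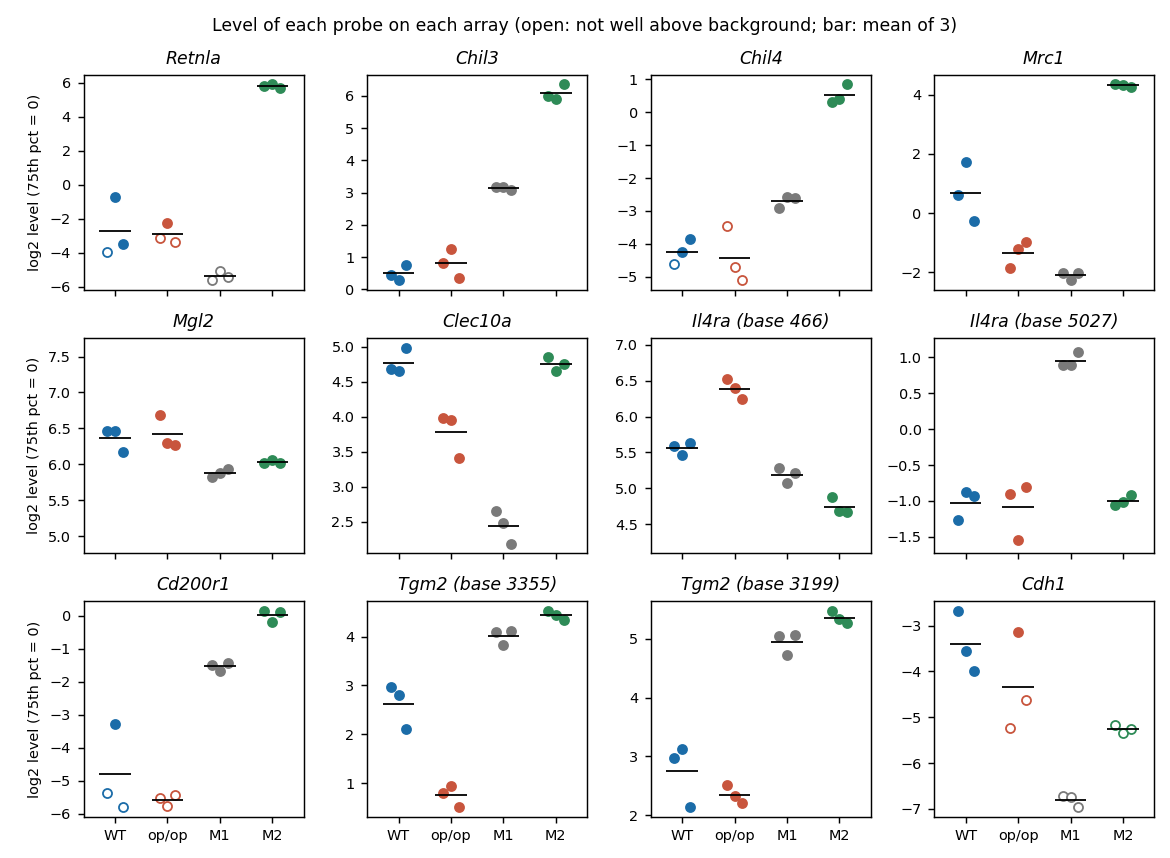
Log2 level of each member probe (vertical axis, array's 75th percentile at 0; each panel has its own range) on each of the 12 arrays, 3 a group, with the group mean as a bar and open circles for arrays where the probe was not well above background. Retnla stands at 5.71 to 5.9 on the M2 arrays and at -0.73 or below on all others, while Mgl2 stays between 5.83 and 6.69 on all 12.

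**Figure D2:**
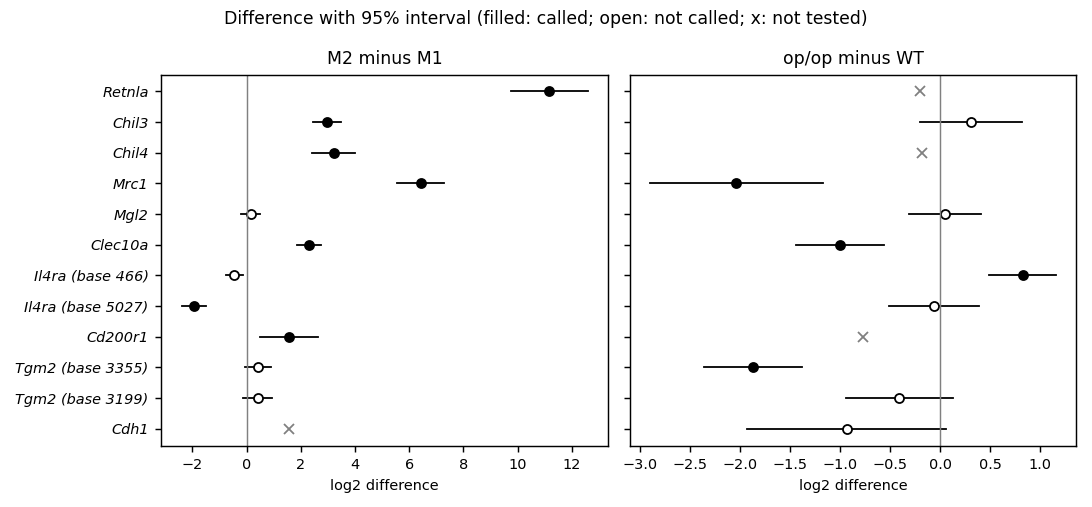
Log2 difference (horizontal axis) of each member probe in M2 minus M1 (left) and op/op minus WT (right), with 95% intervals of the limma fit, n = 3 arrays a group; the panels differ in scale. Mrc1 is 6.42 higher in M2 than in M1 and 2.04 lower in op/op than in WT on the log2 scale, and crosses mark probes that were not tested.

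The secreted members were all highest in M2 cells without overlap, and the largest differences were those of Retnla. Its level was 5.8, 5.9 and 5.71 on the M2 arrays and -5.61, -5.06 and -5.4 on the M1 arrays, where no spot was well above background. The M1 values are therefore only an upper limit. Set against the lowest signal called above background on each M1 array, Retnla was at least 1580-fold higher in M2. It was at least 823-fold higher with a stricter floor, the 10th percentile of the signals called above background. The limma difference of the values as measured had an adjusted p of 3.89e-07 (n = 3 per group). With normexp background correction the bound was 311-fold. On the kidney arrays Retnla was at -3.93, -0.73 and -3.49 in WT, well above background on 2 of 3, and at -3.12, -2.24 and -3.39 in op/op, well above background on 1 of 3. WT replicate 2 stood apart from the other kidney arrays, and the kidney groups overlapped and were not tested. Both kidney groups lay far below M2 cells, with log2 differences of -8.52 ± 0.65 (SE) in WT and -8.72 ± 0.65 in op/op (adjusted p = 1.84e-06 and 5.61e-07, limma), with no overlap. With the kidney values partly at background, these are estimates: they ran from -9.52, without WT replicate 2, to -7.15, with normexp correction, in WT, and from -9.1 to -7.27 in op/op over the alternatives. The probe lies at chr16:48844447-48844506 (mm9, plus strand, base 470 of the transcript).

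Chil3 was measured in all 4 groups and was graded among them. It was at 0.43, 0.28 and 0.76 in WT and 0.83, 1.24 and 0.34 in op/op renal cells, and at 3.16, 3.17 and 3.07 in M1 and 6, 5.92 and 6.36 in M2 cells. The kidney groups overlapped each other and lay below both marrow groups, and M1 lay below M2. The difference between M2 and M1 was 2.96 ± 0.23 (7.79-fold, adjusted p = 4.05e-06, limma). WT renal cells were 48.6-fold below M2 (-5.6 ± 0.23) and 6.23-fold below M1 (-2.64 ± 0.23), so the kidney level was under that of the macrophages that had received no IL-4. Op/op and WT differed by 0.31, with a 95% interval from -0.2 to 0.82 (adjusted p = 0.265). The probe lies at chr3:105950485-105950544 (mm9, minus strand).

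Chil4, the near copy of Chil3, followed the same order at the marrow end. It stood at -2.91, -2.57 and -2.6 in M1 and at 0.31, 0.41 and 0.84 in M2, a difference of 3.21 ± 0.37 (9.27-fold, adjusted p = 7.89e-05, limma) with no overlap. In kidney cells it was at -4.61, -4.25 and -3.84 in WT, well above background on 2 of 3 arrays, and at -3.44, -4.7 and -5.1 in op/op, well above background on none. Against M2 the WT difference was -4.75 ± 0.37 (adjusted p = 2.07e-06), or -2.89 with normexp correction, and M2 was at least 14.1-fold above op/op (adjusted p = 5.74e-07). The latter bound was 8.66-fold with the stricter floor and 5.25-fold with normexp correction. Cross-hybridization between the 2 paralogs was not tested. Its probe lies at chr3:106006584-106006643 (mm9, minus strand). Neutrophils, which also make Chil3, had 4 of 9 tested marker genes higher and 1 lower in M2 than in M1 (8.88% and 8.9% of all probes). Their mean level over 9 markers was 1.06 to 1.44 on M2, 0.51 to 0.6 on M1, -1.08 to -0.36 on WT and -0.38 to -0.05 on op/op arrays, and its part in the Chil3 and Chil4 values was not tested. Of 7 tested eosinophil markers 1 was higher and 0 were lower in M2.

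The macrophage lectins showed 3 different patterns. Mrc1, the mannose receptor CD206, which takes up mannosylated glycoproteins and microbes, was at 4.35, 4.34 and 4.25 in M2 and at -2.02, -2.27 and -2.01 in M1. That is a difference of 6.42 ± 0.4 (85.6-fold, adjusted p = 6.15e-07, limma), without overlap. In WT renal cells it was at 0.62, 1.71 and -0.27, and in op/op renal cells at -1.86, -1.2 and -0.99. All 3 op/op arrays lay below all 3 WT arrays, and WT replicate 4 was the WT array nearest to them. Mrc1 fell 4.1-fold in op/op (-2.04 ± 0.4, adjusted p = 0.00251). The difference was -2.07 within the slide that held both groups, and ran from -2.51 without WT replicate 4 to -1.53 without WT replicate 2. WT cells were 12.4-fold below M2 and 6.91-fold above M1 in Mrc1. Op/op cells were 50.8-fold below M2, and their difference from M1 was 0.75 (95% interval -0.11 to 1.62, adjusted p = 0.0997). That difference passed under 4 of 20 alternatives: cyclic loess (adjusted p = 0.0482), only the compared groups (0.0213), array weights (0.0157) and the replicate block (0.0131). The probe lies at chr2:14253273-14253332 (mm9, plus strand).

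Clec10a, which encodes the galactose-type lectin MGL1 (CD301a), had its lowest level in M1 cells. It stood at 4.69, 4.65 and 4.99 in WT and 3.99, 3.95 and 3.41 in op/op renal cells, and at 2.66, 2.48 and 2.19 in M1 and 4.86, 4.65 and 4.75 in M2 cells. Op/op came next above M1, and WT and M2 overlapped each other above both. The M2 minus M1 difference was 2.31 ± 0.2 (4.96-fold, adjusted p = 9.56e-06, limma), and that of op/op minus WT was -1 ± 0.2 (2-fold, adjusted p = 0.00295). WT minus M2 was 0.02, with a 95% interval from -0.42 to 0.46 (adjusted p = 0.932), while op/op was 1.97-fold below M2 (adjusted p = 0.000791). The op/op against WT difference ran from -1.1 to -0.81 when single arrays were left out. The probe lies at chr11:69984254-69984313 (mm9, plus strand).

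Mgl2, which encodes the sister lectin CD301b and lies beside Clec10a on chromosome 11 (probe at chr11:69950985-69951044, mm9, plus strand), stayed near one level. It was at 6.46, 6.47 and 6.17 in WT and 6.69, 6.3 and 6.27 in op/op renal cells, and at 5.83, 5.88 and 5.94 in M1 and 6.02, 6.06 and 6.02 in M2 cells. M2 minus M1 was 0.15 (95% interval -0.21 to 0.51, adjusted p = 0.629) and op/op minus WT was 0.05 (-0.31 to 0.41, adjusted p = 0.794). Its probe holds 18 pyrimidines in a row, TCCCCTCCTCCTTCCTTC, shown because the 34 probes on the array whose longest such run is 18 bases had median levels of 1.54 in WT and 2.38 in op/op cells, and of 0.75 in M1 and 0.65 in M2 cells, above the medians of all probes (-2.05, -1.96, -2.42 and -2.4). Those 34 probes include that of Mgl2. Their quartiles in WT cells were -0.14 and 2.52, and Mgl2, with a WT mean of 6.37, lay above the upper one. The median op/op minus WT difference of those probes was 1.18, unlike the 0.05 of Mgl2. The probes with the profiles nearest to that of Mgl2, in Trmu, Nme5 and B3gntl1, hold pyrimidine runs of 4, 6 and 6 bases. The part of the run in the level was not tested.

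The receptors included the alpha chain of the IL-4 receptor itself, and its 2 probes gave different accounts. The probe at base 466 of the transcript (chr7:132712550-132712609, mm9, plus strand) was at 5.59, 5.46 and 5.63 in WT and 6.52, 6.4 and 6.25 in op/op renal cells, and at 5.28, 5.07 and 5.22 in M1 and 4.88, 4.68 and 4.67 in M2 cells. On it op/op cells stood above all other groups, by 0.83 ± 0.15 over WT (1.77-fold, adjusted p = 0.00199, limma), and M2 minus M1 was -0.45 ± 0.15 (adjusted p = 0.0646). The probe at base 5027 (chr7:132722922-132722981, mm9, plus strand) was at -1.27, -0.88 and -0.93 in WT and -0.9, -1.54 and -0.81 in op/op renal cells, and at 0.89, 0.89 and 1.08 in M1 and -1.06, -1.01 and -0.92 in M2 cells. Here M1 cells stood alone above the other 3 groups, which overlapped. Il4ra was 3.86-fold lower in M2 than in M1 on this probe (-1.95 ± 0.21, adjusted p = 4.3e-05), and op/op minus WT was -0.06 (95% interval -0.51 to 0.39, adjusted p = 0.82). The probes differed from each other by 0.88 in the op/op minus WT difference and by 1.5 in M2 minus M1. Each gave p = 0.1 in an exact 2-sided permutation test, the smallest p that 3 against 3 arrays allow.

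The sequence of the probe at base 466 is shown because it carries an uninterrupted run of alternating T and G, which capitals mark.
Il4ra, base 466: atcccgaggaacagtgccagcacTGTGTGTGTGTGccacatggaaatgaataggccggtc
The run is 12 bases long, against 3 in the probe at base 5027. Over the array, 16 probes had a longest run of exactly 12, and their median levels were 6.58 in WT and 7.13 in op/op cells, and 6.03 in M1 and 5.82 in M2 cells, which is also the order of the groups on this Il4ra probe. Their median op/op minus WT difference was 0.55, with 8 of 16 called higher and 0 lower (27.5% and 28.5% of all probes). Their median M2 minus M1 difference was -0.28. The Il4ra probe at base 466 is itself among these 16 probes and among the 8 called higher. Probes with a run of 4 had a median WT level of -2.01 and a median op/op minus WT difference of 0.02. At a run of 8 these were 1.08 and 0.85, and at a run of 10 they were 5.26 and 0.71. The probe whose profile over the 12 arrays was nearest to that of Il4ra at base 466, in Mthfsd (RMS difference 0.09), holds such a run of 10 bases, while the next nearest, in Krtap16-3 (0.13) and Zfp956 (0.14), hold runs of 3 and 4. These groups of probes were formed after the values of the Il4ra probes had been seen, and the part of the run in the Il4ra difference was not tested.

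**Figure D3:**
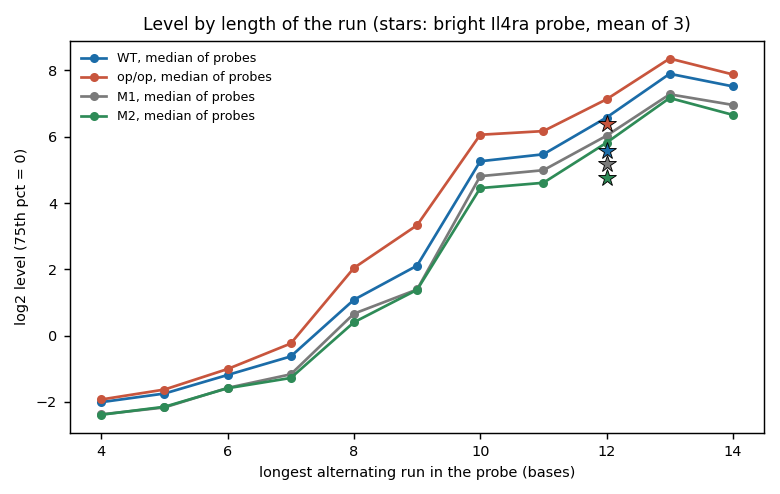
Median log2 level (vertical axis) of all probes by the length in bases of their longest run of alternating T and G (horizontal axis), 1 line a group, with the Il4ra probe at base 466 as stars (group means, n = 3 arrays). The WT median goes from -2.01 at a run of 4 (13523 probes) to 7.52 at a run of 14 (12 probes). Runs of 12, 13 and 14 rest on 16, 15 and 12 probes, and the 16 include this Il4ra probe.

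Cd200r1, an inhibitory receptor for CD200 that myeloid cells carry, was a marrow signal here. It stood at -1.49, -1.66 and -1.43 in M1 and at 0.15, -0.19 and 0.11 in M2, without overlap. The difference of 1.55 ± 0.49 (2.93-fold) passed narrowly (adjusted p = 0.047, limma), and leaving out any 1 of the 6 arrays ended the call, with differences from 1.48 to 1.66. Fitted on M1 and M2 arrays alone, the same difference had an adjusted p of 0.000207. In kidney cells Cd200r1 was at -5.37, -3.27 and -5.8 in WT, well above background on replicate 2 only, and at -5.54, -5.78 and -5.43 in op/op, well above background on none. M2 was at least 10-fold above op/op (at least 6.15-fold with the stricter floor and 4.14-fold with normexp correction, adjusted p = 1.36e-06), and WT minus M2 was -4.84 ± 0.49 (adjusted p = 1.25e-05). With 2 of the 3 WT arrays at background the size of that difference is loose: it was -5.61 without WT replicate 2 and -2.52 with normexp correction. The probe lies at chr16:44794670-44794729 (mm9, plus strand).

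Tgm2, transglutaminase 2, an enzyme that crosslinks proteins, was higher in marrow than in kidney cells. Its probe at base 3355 (chr2:157942275-157942334, mm9, minus strand) was at 2.97, 2.81 and 2.11 in WT and 0.81, 0.94 and 0.52 in op/op renal cells, and at 4.09, 3.82 and 4.12 in M1 and 4.52, 4.44 and 4.33 in M2 cells. No 2 groups overlapped. Op/op fell 3.66-fold below WT (-1.87 ± 0.22, adjusted p = 0.000453, limma; -1.7 within the shared slide), while M2 minus M1 was 0.42 (95% interval -0.07 to 0.91, adjusted p = 0.25). The probe at base 3199 (chr2:157942431-157942490, mm9, minus strand), which lies beside it in the transcript, was at 2.98, 3.13 and 2.14 in WT and 2.51, 2.32 and 2.2 in op/op renal cells, and at 5.05, 4.72 and 5.07 in M1 and 5.47, 5.34 and 5.26 in M2 cells. Here WT replicate 4 lay below all op/op arrays, and op/op minus WT was -0.41 (95% interval -0.94 to 0.13, adjusted p = 0.168). Without that replicate it was -0.71 and passed. The probes' op/op minus WT differences were 1.47 apart on the log2 scale (exact 2-sided permutation p = 0.1, the smallest possible), and their M2 minus M1 differences were 0.01 apart. The longest run of alternating T and G was 4 bases in the first probe and 6 in the second. Probes with a run of 4 had a median op/op minus WT difference of 0.02, and those with a run of 6 had one of 0.33. The part of the run in the gap between the Tgm2 probes was not tested.

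Cdh1, E-cadherin, joins epithelial cells and is also induced by IL-4 in macrophages, where it takes part in cell fusion. Its probe (chr8:109193812-109193871, mm9, plus strand) was printed at 10 spots, whose SD within an array was 0.183 to 0.677 on the log2 scale. It was at -5.16, -5.35 and -5.25 in M2 and at -6.73, -6.75 and -6.96 in M1, and not well above background on any of the 6, so M2 and M1 were not tested and the order of their values gives no difference. In WT renal cells it was well above background on all 3 arrays, at -2.68, -3.55 and -3.98, and in op/op on 1 of 3, at -5.24, -3.14 and -4.63. Op/op minus WT was -0.93 ± 0.45 (adjusted p = 0.097, limma), and it was -1.53, past the threshold, without op/op replicate 2 and 0.1 with normexp correction. WT was at least 2.67-fold above M1 (adjusted p = 8.06e-05) and at least 1.4-fold above M2 (adjusted p = 0.00419). The first bound was 1.39-fold with the stricter floor, and no bound above 1 remained for the second. Both calls ended with that floor (adjusted p = 0.273 and 0.261), and that against M2 also with quantile normalization (0.0857). Markers of distal nephron, collecting duct and general epithelium went the same way: 10 of 12 were higher and 1 lower in WT than in M2 (35.6% and 26.5% of all probes). Their mean level was 0.12 to 1.26 on WT, 0.28 to 1.1 on op/op, -3.16 to -3.15 on M1 and -3.43 to -3.08 on M2 arrays. The part of epithelial RNA in the kidney level of Cdh1 was not tested.

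Kidney cells differed from both marrow states at most member probes, as they did at most probes of the array. Against M2, WT cells had 9 of 12 member probes called (62.1% of all probes), 7 lower and 2 higher (26.5% and 35.6% of all probes), with a median of -2.21 against 0.2 for all probes. Op/op cells had 10 of 11 called against M2 (81.4%), 8 lower and 2 higher (36.7% and 44.7%), with a median of -3.67, or -3.32 with Chil4 and Cd200r1 at their bounds, against 0.25. Against M1, WT cells had 10 of 11 called (57%), 6 lower and 4 higher (24.2% and 32.8%), with a median of -1.38 against 0.2. Op/op cells had 9 of 10 called against M1 (78.9%), 6 lower and 3 higher (35.4% and 43.5%), with a median of -1.88, or -1.19 with Chil4 and Cd200r1 at their bounds, against 0.26. These comparisons share groups with each other. The WT probes higher than in M1 were Mrc1, Clec10a, Mgl2 and Cdh1, while Chil3, Chil4, Cd200r1, both Tgm2 probes and Il4ra at base 5027 were lower. Mgl2 exceeded M1 by only 0.48 ± 0.17 (adjusted p = 0.0255), a call lost under 7 of 20 alternatives: without WT replicate 2 or any 1 of the M1 arrays, with only the compared groups, with the replicate block, and with slide as a random block (adjusted p from 0.0515 to 0.187). In op/op it exceeded M2 by 0.39 ± 0.17 (adjusted p = 0.0469), and 10 of 20 alternatives ended that call.

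**Figure D4:**
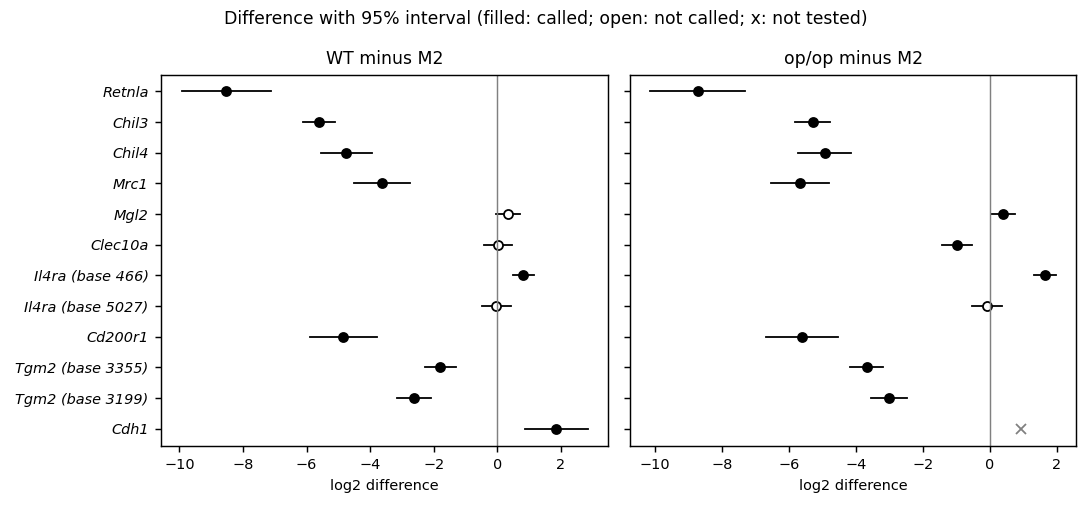
Log2 difference (horizontal axis) of each member probe in WT minus M2 (left) and op/op minus M2 (right), with 95% intervals of the limma fit, n = 3 arrays a group. Chil3 lies at -5.6 and -5.29 and Clec10a at 0.02 and -0.98; slide and tissue cannot be told apart.

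Markers of several cell types also differed between the kidney groups, where 27.5% of all probes were called higher and 28.5% lower in op/op. Of 12 macrophage markers 10 fell in op/op and 0 rose, and their mean level was 2.14 to 3.39 on WT and 1.15 to 1.18 on op/op arrays. Of 10 proximal tubule markers 9 fell and 0 rose (2.33 to 3.41 on WT, 0.31 to 1.4 on op/op). Of 5 tested B cell markers 4 rose and 1 fell, of 5 tested T cell markers 3 rose and 0 fell, and of 8 tested neutrophil markers 4 rose and 0 fell. Of 8 dendritic cell markers 1 fell and 0 rose. Of 4 tested eosinophil markers 3 rose and 1 fell, and of 3 tested mast cell and basophil markers 1 rose. Of 10 endothelial markers 1 rose and 0 fell, with a mean level of 0.84 to 1.48 on WT and 1.06 to 1.78 on op/op arrays. The part of these shifts in the lower Mrc1, Clec10a and Tgm2 values of op/op cells was not tested.

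Upstream of the members, the ligands, receptor chains and signalling genes of IL-4 and IL-13 held no gene that passed as higher in M2 cells. Of 15 such genes 14 were tested in M2 against M1, with 0 higher and 4 lower (8.88% and 8.9% of all probes) and a median of -0.15. The 4 were Il13ra1, a chain of the type II IL-4 receptor (-2.71 ± 0.18, adjusted p = 1.22e-06, limma), the common gamma chain gene Il2rg (-1.84 ± 0.21, adjusted p = 7.71e-05), the cytokine signalling inhibitor Socs1 (-2.37 ± 0.29, adjusted p = 0.000134) and the phosphatase gene Ptpn6 (-1.58 ± 0.25, adjusted p = 0.00102). Stat6 was at 2.43 in M1 and 2.3 in M2 (group means, adjusted p = 0.852). In op/op against WT 13 were tested, 2 rose and 6 fell (27.5% and 28.5% of all probes), with a median of -0.16. Il13ra1 (-1.65 ± 0.18, adjusted p = 0.00038), the STAT-induced inhibitor Cish (-1.34 ± 0.19, adjusted p = 0.000812), Ptpn6 (-1.73 ± 0.25, adjusted p = 0.000873) and Il2rg (-1.05 ± 0.21, adjusted p = 0.00276) were lower in op/op. Il13 itself passed the background call on none of the 12 arrays, and Il4 was well above background on 1 of 3 WT, 0 of 3 op/op, 3 of 3 M1 and 3 of 3 M2 arrays.

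Among other known IL-4 targets, more were higher than lower in M2 cells, and most of those tested fell in op/op cells. Of 25 genes 22 were tested in M2 against M1, with 13 higher and 3 lower (8.88% and 8.9% of all probes). The median was 2.04, against 0 for all probes. The nuclear receptor gene Pparg rose (3.66 ± 0.25, adjusted p = 1.17e-06, limma), as did the kinase gene Matk (2.06 ± 0.16, adjusted p = 3.12e-06). The IL-1 receptor antagonist gene Il1rn was lower in M2 (-5.57 ± 0.41, adjusted p = 2.28e-06), and the chemokine gene Ccl22, not well above background on any M2 array, was at least 2.31-fold higher in M1 (1.33-fold with the stricter floor, adjusted p = 2.69e-06). In op/op against WT 24 were tested, 2 rose and 16 fell (27.5% and 28.5% of all probes). The median was -1.21, or -0.77 with 4 genes not above background in op/op at their bounds, against 0.08 for all probes. Another such gene had no bound above 1 and kept its own difference. The 4 count among the 16 that fell, and with the stricter floor the highest of their bounds was 1.02-fold. The chemokine gene Ccl17 (-2.34 ± 0.29, adjusted p = 0.00053), the lectin gene Cd209a (-1.17 ± 0.2, adjusted p = 0.00157) and Myc (-1.47 ± 0.26, adjusted p = 0.00161) fell. Ccl17 was lower in M2 than in M1 (-1.09 ± 0.29, adjusted p = 0.0232, limma), and Myc was not called there (adjusted p = 0.153). Cd209a was not well above background on any marrow array, and it is also the dendritic cell marker that fell. Arg1, arginase 1, was at least 1.49-fold higher in WT, with no op/op array above background, and no bound above 1 remained with the stricter floor. Its adjusted p of 0.00164 (limma) is that of the difference of the values as measured, not of the bound. Genes of this list went both ways between M2 and M1 while being lower in op/op, as with Pparg and Il1rn (-0.71 and -1.41).

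**Figure D5:**
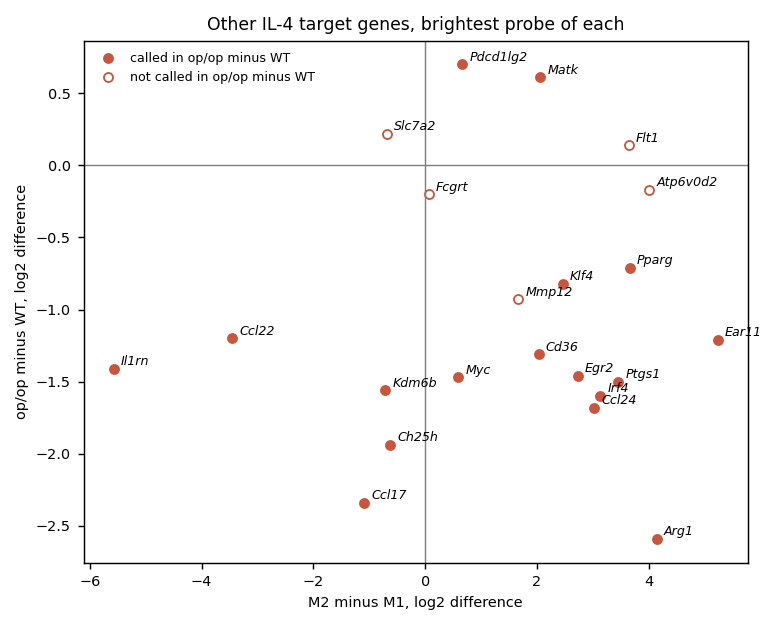
Log2 difference of op/op minus WT (vertical axis) against M2 minus M1 (horizontal axis) for the 22 other IL-4 target genes tested in both, 1 point a gene at its brightest probe. Pparg lies at 3.66 and -0.71 and Il1rn at -5.57 and -1.41; filled points were called in op/op minus WT, where 56% of all probes were called.

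Profiles over the 12 arrays were compared by the root mean square (RMS) difference of mean-centred log2 levels, over the brightest probes of 16398 genes. The genes nearest to Chil3 were Nrcam (RMS 0.36), Cnrip1 (0.43) and its paralog Chil4 (0.56), with M2 minus M1 differences of 2.54, 2.92 and 3.21. Those nearest to Chil4 were Chil3 (0.56), Nrcam (0.58) and Cnrip1 (0.59). The nearest to Mrc1 were Rnase2a (0.66), Slc36a2 (1) and Ear2 (1.07), with op/op minus WT differences of -1.21, -1.39 and -1.3. The nearest to Retnla were Mrc1 (2.05), Bex1 (2.13) and Rnase2a (2.24). The nearest to Clec10a were Cytip (0.31), Idh2 (0.34) and Tbc1d4 (0.35), to Cd200r1 Lhfpl2 (0.41), Flrt2 (0.47) and Fam20c (0.48), and to Cdh1 Slc16a7 (0.28), Pllp (0.4) and Gprc5c (0.42). For Tgm2 at base 3199 they were Atp6v1h (0.19), Akr1b8 (0.2) and Cmc1 (0.21). For Mgl2, which varied little, they were Trmu (0.08), Nme5 (0.11) and B3gntl1 (0.11), and for Il4ra at base 466 Mthfsd (0.09), Krtap16-3 (0.13) and Zfp956 (0.14). The RMS was not scaled to how far a probe moves. A small RMS for a probe that moves little says little about likeness, as does a large RMS for one that moves much. The SD over the 12 arrays was 0.27 for Mgl2 and 4.49 for Retnla, which was not well above background on any M1 array.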

How the data were processed

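Per the labels' protocols, the arrays received Cy3-labelled cDNA that the Ovation PicoSL WTA V2 system had amplified from RNeasy Micro kit RNA. Per the file headers, the deposited spot intensity values are background-subtracted processed signals of Agilent Feature Extraction 10.7.3.1. The value table deposited by the authors is on a log2 scale. Its columns correlated with the log2 scanner signals at r = 1.0000 on every array, with medians of -2.47 to -1.88.

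Spots flagged as outliers were left out (30 probes lost, 55651 kept), spots of a probe were averaged, and log2 signals were centred on each array's 75th percentile. No spot was saturated. In all, 42938 probes were well above background on all arrays of at least 1 group. The fit used limma 3.58.1 (R 4.3.3) on 12 arrays in 4 groups without covariates, and the procedure was tested on simulated data. A probe without a spot well above background in a group has only a bounded fold there: the bright group's mean against the mean, over the dim group's arrays, of the higher of the probe's own signal and the lowest signal well above background on that array. A stricter floor was the 10th percentile of such signals. Probes were named by accession (27494), symbol (3544) or synonym (403) in RefSeq's tables, or as in the file (24210), and coordinates are those of the files (mm9). Exon and UTR positions were not analysed here. Where a list gene had several probes, the brightest was used.

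The members and lists were chosen with earlier results of these data known. All 12 member probes are named. From each list at most 4 genes with the smallest p per comparison are named. Stat6, Il4 and Il13, the WT-higher and WT-lower member sets, and the probe runs were picked after their values were seen. For each member, the 3 nearest profiles are given. Alternatives were normexp correction (offset 50), quantile normalization, cyclic loess, median centring, the deposited values, other filters and floors, the brightest probe of a gene, only the groups compared, robust eBayes, array weights, slide as a term or random block (statmod 1.5.0), replicate number as a block, a 2-fold rule and leaving out each array. Figures were drawn with matplotlib 3.10.9 in Python 3.11.15, from tables made with numpy 2.4.6 and pandas 2.3.3.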

Additional observations from a re-analysis of the deposited data

How the results depend on the processing

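The count of member probes called in op/op against WT was 2 (0 higher, 2 lower) with a rule of at least 2-fold, and it was also 2 with the replicate number as a block (15.5% of all probes called, against 56%), where Mrc1 and Tgm2 at base 3355 were called and Clec10a (adjusted p = 0.0582) and Il4ra at base 466 (adjusted p = 0.0674) were not. The labels do not say whether same-numbered samples belong together. Deviations of same-numbered arrays from their group means correlated at -0.14, 0.08 and -0.06 in the kidney groups and at -0.05, 0.12 and 0.08 in the marrow groups. With only 3 arrays behind each group mean, these correlations cannot decide whether the samples were paired. In WT against M2 the count was 5 when only probes well above background on all 12 arrays were used, which left 8 of the 12 to test. Chil4 in op/op against M1 was 0.01 with normexp correction (adjusted p = 0.951), against -1.72; the cause was not tested. Leaving out 1 array gave 6 calls in M2 against M1, 4 to 5 in op/op against WT, 9 to 10 in WT against M2, in WT against M1 and in op/op against M2, and 9 in op/op against M1. Il4ra at base 466 in M2 against M1 passed under 8 of 20 alternatives, with adjusted p from 0.00445 to 0.201, and both Tgm2 probes passed there with M1 and M2 fitted alone and with array weights. Tgm2 at base 3199 passed in op/op against WT with array weights (-0.65), and Cdh1 with cyclic loess (-1.4). Cd200r1 in M2 against M1 lost its call with quantile normalization (adjusted p = 0.105) and without a filter (0.0565). Arrays without signal above background leave differences of Retnla, Chil4, Cd200r1 and Cdh1 in kidney cells untested, bounded or loose in size, and 3 arrays per group limit the precision of every difference.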
